A study of Mus musculus with 8 samples.

Results

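Mitochondrial fatty acid oxidation breaks acyl chains into acetyl-CoA, and 10 of the 8562 genes listed for mouse epididymal white adipose tissue (eWAT) were taken to describe it. They were chosen by symbol, as textbook enzymes of the pathway: Cpt1a, Cpt2, Acadm, Acadl, Acadvl, Hadha, Hadhb, Acaa2, Etfa and Etfb. All 10 were found in the table of expression values. The tissue came from male mice aged 6 weeks. HuR-FKO mice were AdipoQ-Cre;HuRf/f, in which Cre recombinase driven by the adiponectin promoter removes the floxed gene of the RNA-binding protein HuR (Elavl1) in adipocytes, so that the other cells of the fat pad still carry it. Ctrl mice were littermates with HuRf/f alleles and no Cre. Fat of 3 mice made 1 pool, each pool was divided between RNA-seq (mRNA) and ribosome profiling, which sequences ribosome-protected fragments (RPF), and there were 2 pools per genotype, hence 8 libraries. The question was whether the enzymes of fat burning change in mRNA level or in ribosome load when adipocytes lack HuR. A p-value here rests on the spread between pools, of which there were only 2 per genotype. The test (limma) draws the spread of each gene toward that of genes at a similar level.

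In the cell, long-chain fatty acids are first joined to CoA, then passed to carnitine by CPT1 at the outer mitochondrial membrane and back to CoA by CPT2 at the inner one. Acyl-CoA dehydrogenases for very long (Acadvl), long (Acadl) and medium (Acadm) chains then take electrons from the chain, the trifunctional protein of Hadha and Hadhb carries out the remaining steps on long chains, and the thiolase Acaa2 splits shorter ones. The electrons leave through the electron transfer flavoprotein, built from the subunits Etfa and Etfb. White fat mainly stores fatty acids and releases them to other organs, so that these enzymes work there beside a much larger machinery for synthesis and storage.

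Of the 10 enzymes, Etfb was the only one whose mRNA level in HuR-FKO fat passed the test, at 0.731 times its Ctrl level. The other 9 did not, and 6.54% of all genes passed as lower. The Etfb call held in 7 of 14 alternative settings of the analysis. It was lost after a correction for transcript length and G+C content. None of the 10 passed the test in RPF. In 9 of the 10, footprints lay more densely along the mRNA than in the median gene of this tissue, in both genotypes. Cpt2 was the exception. By the test 33.9% of all genes lay above the median gene, and 15 of 19 citrate cycle genes did, so this was not particular to the 10.

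Ribosome load is one of the readouts, so the bases around the start codons, where the ribosome begins, are shown before the values for every member but Acaa2. They run from 9 bases before the ATG to 6 bases after it, read from the GENCODE M21 mouse transcripts (GRCm38), with capitals for the base at position -3, the ATG and the base at position 4, counted from the A of the ATG as 1.
Cpt1a: ccactcAagATGGcagag
Cpt2: cccgggAcgATGAtgccg
Acadm: ggagccAtcATGGcagcg
Acadl: catcccGccATGGctgcg
Acadvl: gctttgGagATGCagtcg
Hadha: ctgctcAagATGGtggcg
Hadhb: gatttcAgaATGActacc
Etfa: acagagAcaATGTttcga
Etfb: tgcaggAagATGGcggag

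A purine at position -3 and a G at position 4 are the bases of the vertebrate start context that matter most. All 10 members had a purine at -3, as did 88.2% of 8181 genes of the table. A G at 4 was present in 6 of 10 members, against 53.2% of those genes. Cpt2, Acadvl, Hadhb and Etfa lacked it.

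In mRNA, the HuR-FKO pools gave 5223721 and 5967917 coding reads and the Ctrl pools 5456731 and 8060054. The RPF libraries were shallower, with 1311977 and 531966 reads in HuR-FKO pools and 1153205 and 723940 in Ctrl pools. Each member had at least 538 reads in every mRNA library and at least 84 in every RPF library, against a median gene of 244 to 366 and of 16 to 40 reads. The mRNA of Elavl1 had 41.6 and 43.3 RPKM in HuR-FKO libraries and 40.8 and 49.8 RPKM in Ctrl libraries, which overlapped. Its reads cover the whole coding sequence and come from all cells of the pad. Why the levels overlapped was not tested. The study reports loss of HuR in adipose tissues, eWAT among them, by real-time PCR and western blot. The reads here do not check the genotype, and HuR-FKO below stands for the libraries labelled so. Insig1, the transcript the study follows as a target of HuR, had 59.5 and 67.5 RPKM in HuR-FKO and 136 and 131 RPKM in Ctrl mRNA libraries (log2 fold change -1.06, limma adjusted p = 0.000594). All 12 white adipocyte markers were listed, and their mRNA levels summed to 84179 and 82097 RPKM in HuR-FKO and 69953 and 70847 RPKM in Ctrl libraries. Most of that sum was Fabp4 (37985 and 38627 RPKM in HuR-FKO, 26435 and 32249 RPKM in Ctrl) and Cfd. By the test Pnpla2 was higher and Lep lower, against 7.50% and 6.54% of all genes, and the other 10 did not pass. The median log2 fold change of the 12 was 0.02. The summed level of 15 macrophage markers was 2833 and 2592 RPKM in HuR-FKO, against 2409 and 2252 RPKM in Ctrl. Of the 15, 6 were higher in HuR-FKO (Cd68, Cd14, Itgam, Cd163, Msr1 and Ms4a7), against 7.50% of all genes. That count was 0 when either HuR-FKO library was left out, 9 without Ctrl replicate 1 and 2 when all 8 libraries shared a fit. Of 6 listed red blood cell markers, 5 were lower in HuR-FKO, all of them globins, against 6.54% of all genes. The 6 summed to 3605 and 5984 RPKM in HuR-FKO and 12267 and 8331 RPKM in Ctrl. The count of 5 was 0 without HuR-FKO replicate 1, with a correction for length and G+C content or in the shared fit, and 2 with quantile normalization. Most of these globins are near-identical copies, so that their reads may be shared between them. The part of these cells in the values below was not tested. In bulk tissue, fewer cells of a type and less RNA per cell cannot be told apart.

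Levels are given in RPKM, reads scaled by the length of the coding sequence and by the coding reads of the library, so that genes can be compared per length. Etfa was the most abundant member, at a mean of 404 RPKM over the 4 mRNA libraries, higher than 96.8% of genes, and Cpt1a the least, at 44.6 RPKM and higher than 61.7%. The summed mRNA level of the 10 members was 2213 and 2238 RPKM in HuR-FKO and 2308 and 2365 RPKM in Ctrl. Without Etfb, the sums were 1922 and 1969 RPKM in HuR-FKO and 1939 and 1967 RPKM in Ctrl, which overlapped. Summed footprints were 3202 and 3252 RPKM in HuR-FKO and 3094 and 3050 RPKM in Ctrl, higher in HuR-FKO without overlap. Footprints summed over all listed genes were higher without overlap too, at 940449 and 937874 RPKM in HuR-FKO and 931943 and 913109 RPKM in Ctrl. The members took 0.298% to 0.312% of coding reads in mRNA libraries and 0.402% to 0.426% in RPF libraries.

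**Figure D1:**
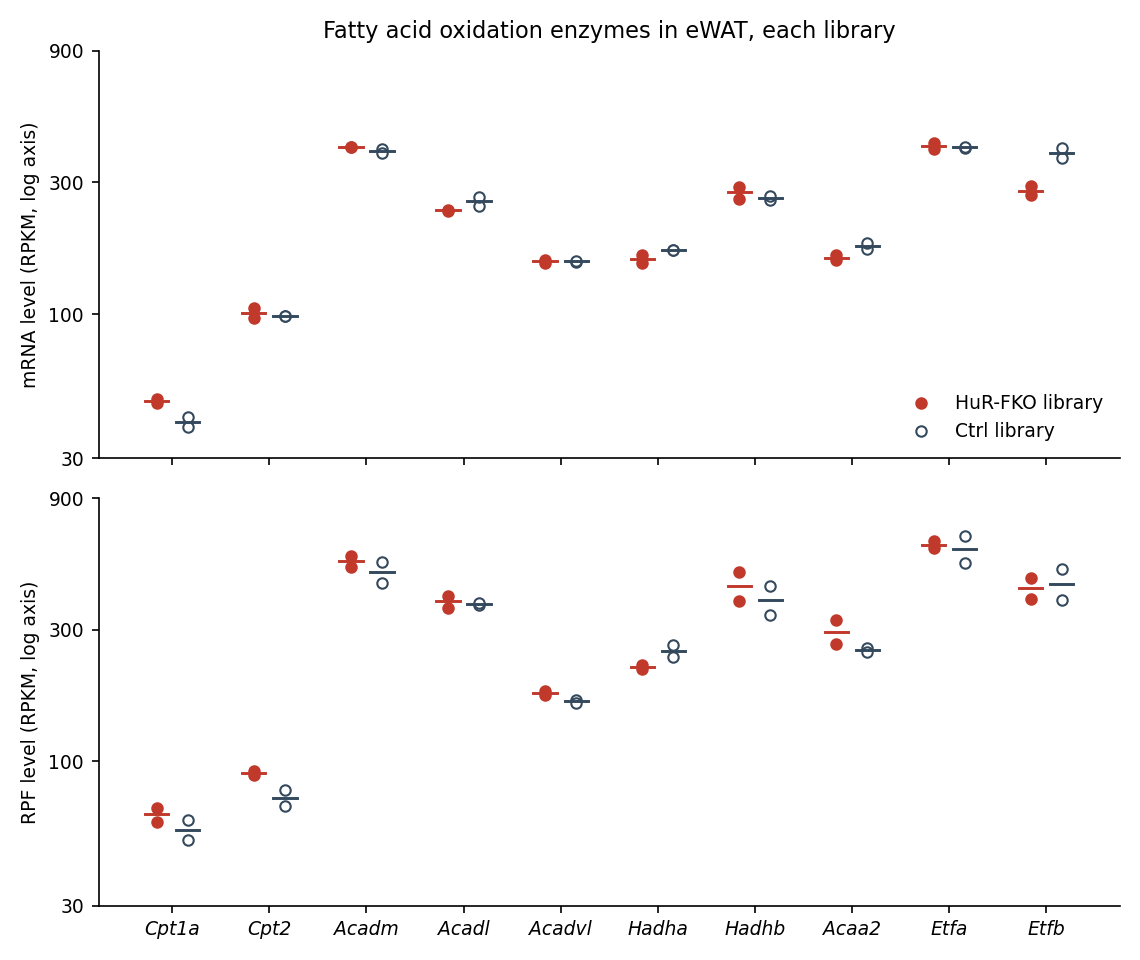
Level of each enzyme in each library, in RPKM on a log axis, for mRNA (top) and ribosome footprints (bottom). Filled points are HuR-FKO libraries, open points are Ctrl libraries and short lines are the means of 2 libraries. Etfb mRNA stands apart between genotypes (291 and 269 RPKM in HuR-FKO, 369 and 399 RPKM in Ctrl), while its footprints overlap.

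In the mRNA comparison, 14.0% of all 8562 genes passed the test in either direction (limma, Benjamini-Hochberg adjusted p under 0.05), 7.50% higher and 6.54% lower. Of the members, 0 of 10 were higher and 1 of 10 was lower, and no other member had an unadjusted p under 0.05. The median log2 fold change was 0.01 over the members and 0.02 over all genes. The genotypes did not overlap for 2 members that were higher in HuR-FKO (Cpt1a and Acadm) and 4 that were lower (Acadl, Hadha, Acaa2 and Etfb), against 32.5% and 27.8% of all genes.

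Cpt1a, the outer-membrane carnitine acyltransferase and the step that malonyl-CoA inhibits, lies on chromosome 19 (3323285 to 3385733). It had 47.8 and 49.1 RPKM in HuR-FKO mRNA libraries and 42.5 and 39.0 RPKM in Ctrl mRNA libraries. Both HuR-FKO libraries were above both Ctrl libraries. The log2 fold change of 0.25 ± 0.12 (SE) did not pass the limma test (adjusted p = 0.191), and its 95% interval ran from -0.02 to 0.51. Its footprints were 60.4 and 68.0 RPKM in HuR-FKO and 61.3 and 51.8 RPKM in Ctrl, and overlapped. The muscle isoform Cpt1b, which was outside the rule for named genes and is given because it catalyses the same step, had 6.69 and 5.86 RPKM in HuR-FKO and 3.95 and 4.82 RPKM in Ctrl mRNA libraries (log2 fold change 0.44 ± 0.19 (SE), limma adjusted p = 0.156).

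Cpt2, the inner-membrane enzyme that hands the chain back to CoA, lies on chromosome 4 (107903981 to 107923610). Its mRNA was at 105 and 96.4 RPKM in HuR-FKO and 98.7 and 98.3 RPKM in Ctrl. Its footprints were at 92.6 and 89.4 RPKM in HuR-FKO and 68.9 and 79.0 RPKM in Ctrl. The mRNA levels overlapped and the footprint levels did not. The footprint change of 0.30 ± 0.18 (SE, log2) was the largest of the 10 members and did not pass the limma test (adjusted p = 0.615, 95% interval -0.11 to 0.71). It rested on 94 to 240 reads per library.

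None of the acyl-CoA dehydrogenases changed past the threshold. Acadm, for medium chains, had 402 and 404 RPKM in HuR-FKO and 396 and 384 RPKM in Ctrl. Acadl, for long chains, had 239 and 236 RPKM in HuR-FKO and 246 and 266 RPKM in Ctrl. Acadvl, for very long chains, had 154 and 157 RPKM in HuR-FKO and 155 and 156 RPKM in Ctrl. The 95% intervals of the log2 fold changes bound them to -0.20 to 0.29 for Acadm, -0.35 to 0.14 for Acadl and -0.24 to 0.24 for Acadvl. In footprints, Acadvl was higher in both HuR-FKO libraries (180 and 175 RPKM) than in both Ctrl libraries (167 and 163 RPKM), a log2 difference of 0.10 ± 0.15 (SE). Footprints of Acadm were 553 and 508 RPKM in HuR-FKO and 445 and 526 RPKM in Ctrl, and those of Acadl were 361 and 399 RPKM in HuR-FKO and 368 and 374 RPKM in Ctrl, so both overlapped.

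Hadha, which encodes the subunit of the trifunctional protein with hydratase and dehydrogenase activity, had an mRNA level of 153 and 164 RPKM in HuR-FKO and 170 and 171 RPKM in Ctrl. Its footprints were at 224 and 216 RPKM in HuR-FKO and 238 and 265 RPKM in Ctrl, so HuR-FKO was lower without overlap in both assays. Neither log2 fold change passed the test, at -0.11 ± 0.11 in mRNA and -0.19 ± 0.14 in RPF (SE). Hadhb, which encodes the thiolase subunit, was at 262 and 290 RPKM in HuR-FKO and 259 and 268 RPKM in Ctrl in mRNA, and at 484 and 382 RPKM in HuR-FKO and 338 and 434 RPKM in Ctrl in footprints. The ratio of Hadhb to Hadha within a library does not depend on how libraries are scaled. It was 1.72 and 1.77 in HuR-FKO and 1.52 and 1.57 in Ctrl for mRNA, and 2.16 and 1.77 in HuR-FKO and 1.42 and 1.64 in Ctrl for footprints. The HuR-FKO ratios were above the Ctrl ratios in both assays, by 1.13 times in mRNA and 1.29 times in RPF. An exact permutation test of 2 libraries against 2 cannot go below p = 0.333 (two-sided), which is the value this ratio gave in both assays. Ratios of other members also separated in mRNA. HuR-FKO was above Ctrl for Cpt1a to Cpt2 (1.16 times), Acadm to Acadl (1.11 times) and Acadvl to Acadl (1.075 times). In footprints those ratios overlapped. Separation in mRNA was thus not particular to partner subunits.

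Hadha and Hadhb are the only members that are neighbours in the genome. Hadha runs leftward (chromosome 5, 30118304 to 30155162, minus strand) and Hadhb rightward (chromosome 5, 30155248 to 30184593, plus strand), and 85 bases separate their annotated start sites. The stretch between them is shown because both genes start from it, at chr5:30155163-30155247 on the plus strand of GRCm38.p6, from RefSeq promoter sequence, with its CpG pairs in capitals.
Hadha and Hadhb: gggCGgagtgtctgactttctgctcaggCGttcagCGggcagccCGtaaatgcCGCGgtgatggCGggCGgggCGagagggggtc
It holds 69.4% G and C, 9 CpG pairs and 0 matches to TATAA on either strand. In RefSeq promoter windows of 300 bases (GRCm38.p6, 250 before and 50 after the start), which were matched for 9 members, the nuclear receptor half-site AGGTCA was found on either strand in 3 of 9 (Acadm, Acadvl and Cpt1a), against 16.3% of 32851 windows. The extended half-site AAGGTCA, which contains those letters, was found in Acadm alone among the 9, against 4.72% of windows. A match of letters is a description and not a bound site.

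Acaa2, the thiolase for medium and shorter chains, had 163 and 157 RPKM in HuR-FKO and 172 and 181 RPKM in Ctrl mRNA libraries. Its footprints ran the other way, at 266 and 325 RPKM in HuR-FKO and 257 and 250 RPKM in Ctrl. The genotypes did not overlap in either assay. Neither change passed the test (log2 fold change -0.14 ± 0.11 in mRNA and 0.21 ± 0.15 in RPF, SE), and neither did their difference, a change in footprints per mRNA of 0.35 ± 0.18 (SE, log2; limma adjusted p = 0.647).

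Etfb encodes the beta subunit of the electron transfer flavoprotein and lies on chromosome 7 (43444083 to 43457800). It had 291 and 269 RPKM in HuR-FKO mRNA libraries and 369 and 399 RPKM in Ctrl mRNA libraries, from 1167 to 2465 reads per library. Both HuR-FKO libraries were below both Ctrl libraries. Its log2 fold change of -0.45 ± 0.11 (SE) passed the limma test (adjusted p = 0.0296), with a 95% interval of -0.71 to -0.20. Etfb was also the member with the shortest transcript, 893 bases against a median of 2983 over all genes. The median mRNA log2 change was -0.13 in the quartile of genes with the shortest transcripts and 0.19 in the quartile with the longest. Across genes, transcript length correlated with the mRNA change (Spearman rho = 0.379). It also correlated with the difference between the Ctrl mRNA libraries (0.344), so a length trend was present within 1 genotype as well. When each library was corrected for transcript length and for the G+C content of coding sequences, Etfb changed by -0.21 and no longer passed (adjusted p = 0.141). Over 14 alternatives its log2 fold change lay between -0.51 and -0.21, its adjusted p between 0.000541 and 0.188, and it passed in 7. Leaving out a library ended the call for HuR-FKO replicate 1 (adjusted p = 0.11), HuR-FKO replicate 2 (0.188) and Ctrl replicate 2 (0.0793), and kept it for Ctrl replicate 1 (0.0169).

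Footprints on Etfb overlapped between genotypes, at 387 and 463 RPKM in HuR-FKO and 496 and 384 RPKM in Ctrl (log2 fold change -0.04 ± 0.17, SE). The 95% interval of that change, -0.43 to 0.34, overlapped that of the mRNA change, -0.71 to -0.20. The change in footprints per mRNA was 0.41 ± 0.21 (SE, log2), with a 95% interval of -0.07 to 0.88. It did not pass (limma, unadjusted p = 0.0835, adjusted p = 0.647).

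Etfa, the alpha subunit, was at 396 and 416 RPKM in HuR-FKO and 401 and 404 RPKM in Ctrl in mRNA, and at 594 and 627 RPKM in HuR-FKO and 653 and 523 RPKM in Ctrl in footprints, and overlapped in both. In mRNA, the ratio of Etfb to Etfa was 0.736 and 0.647 in HuR-FKO and 0.920 and 0.987 in Ctrl, without overlap. In footprints it was 0.651 and 0.739 in HuR-FKO and 0.760 and 0.733 in Ctrl, and overlapped. The mRNA ratio in HuR-FKO, 0.691 ± 0.063, was close to the footprint ratio of the same genotype, 0.695 ± 0.062 (SD, n = 2 libraries each), while in Ctrl they were 0.954 ± 0.048 in mRNA and 0.747 ± 0.019 in footprints. As background, the subunits form a protein complex with equal numbers of both.

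**Figure D2:**
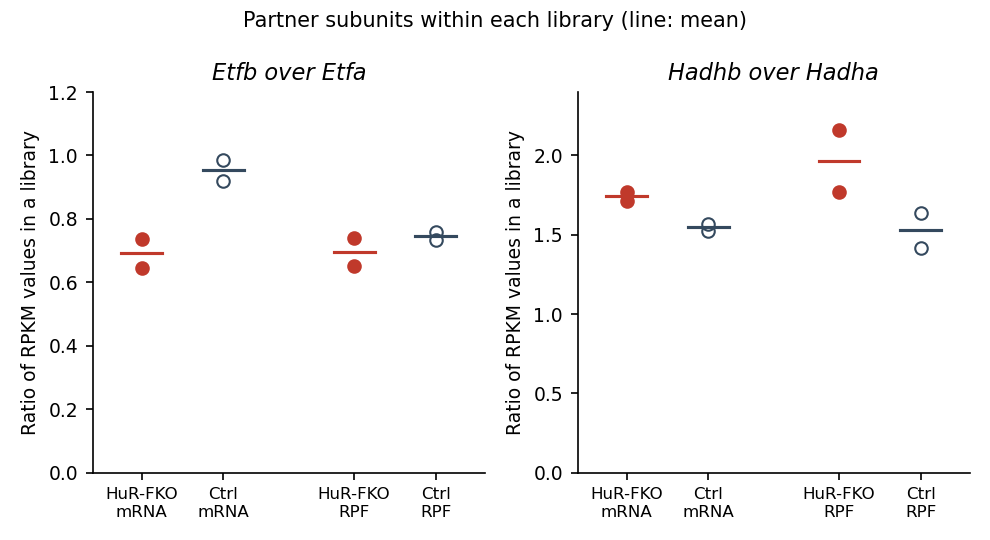
Ratio of RPKM values of partner subunits in each library, with both axes starting at 0. Filled points are HuR-FKO libraries, open points are Ctrl libraries and lines are means. For Etfb over Etfa the genotypes separate in mRNA and overlap in RPF, and for Hadhb over Hadha HuR-FKO lies above Ctrl in both.

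In RPF, 0.444% of all genes passed the limma test in either direction. Of the members, 0 of 10 passed, 0 had an unadjusted p under 0.05, and 0 passed with voom on the recovered reads. The median log2 change was 0.12 over the members and -0.05 over all genes. Members without overlap were Cpt2, Acadvl and Acaa2, higher in HuR-FKO, and Hadha, lower, so 3 and 1 of 10 against 17.7% and 24.1% of all genes. For translational efficiency (TE), the footprint change beyond the mRNA change, 0.0117% of genes passed limma and 0 of 10 members did, again with 0 at an unadjusted p under 0.05 and 0 with voom. Member values ran from -0.08 (Hadha) to 0.41 (Etfb), with a median of 0.10, against -0.07 over all genes. The widest 95% interval among the members, that of Hadhb, ran from -0.39 to 0.60.

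**Figure D3:**
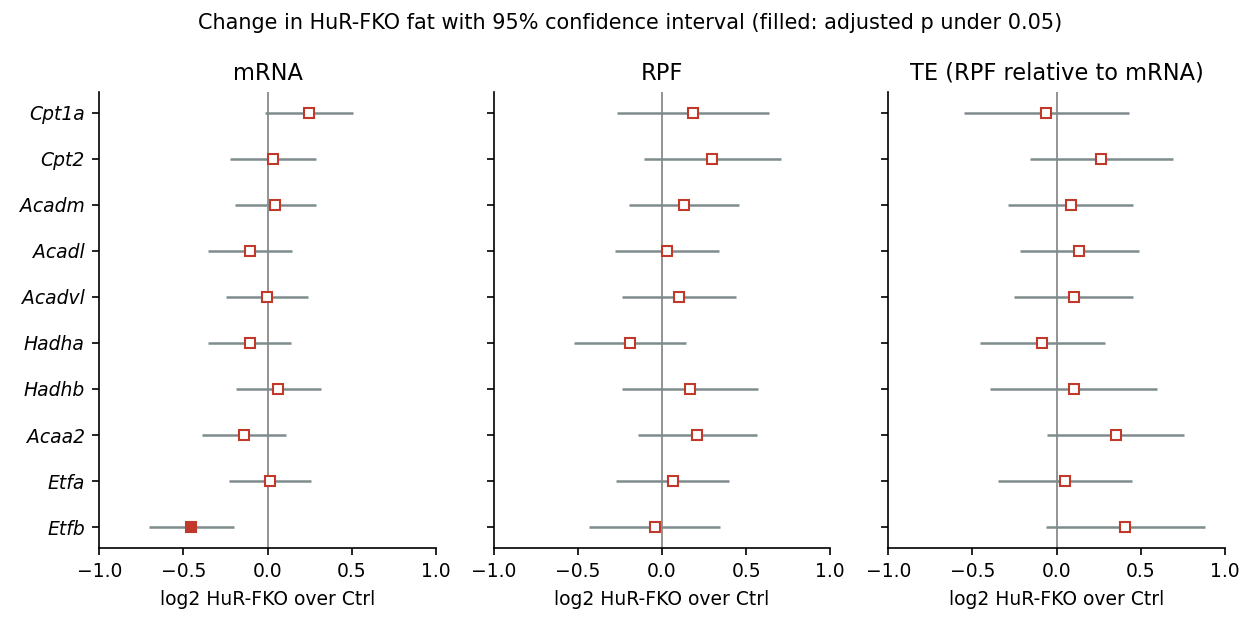
Change of each enzyme in HuR-FKO relative to Ctrl on the log2 scale, with 95% confidence intervals, for mRNA, RPF and TE. Squares are limma estimates, and the only filled square, Etfb mRNA at -0.45, has an adjusted p under 0.05. Every other interval includes 0.

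Ribosome load was then compared between genes within a pool. It is the log2 ratio of footprints to mRNA of the pool, set to 0 at the median gene. Both values are per coding length, so it is a density along the mRNA and not a count per molecule. By the limma test over the 4 pools, 67.6% of all genes differed from the median gene, 33.9% above it and 33.7% below it. Of the members, 9 of 10 were above and 0 of 10 below. The median of the members was 0.78, against 0.00 over all genes. This was not particular to them: 15 of 19 citrate cycle, 12 of 18 peroxisomal and 10 of 14 fatty acid synthesis genes were above. Below it were 0, 1 and 2 of these lists, and the list medians were 0.66, 0.52 and 0.57. Of 10 endothelial markers, 0 were above and 10 below. Other marker lists lay mostly above: 12 of 15 macrophage, 8 of 10 fibroblast and preadipocyte and 7 of 12 white adipocyte markers. Below were 1, 0 and 1 of these, and their medians were 0.81, 1.30 and 0.84. All 9 members were above 0 in each of the 4 pools, as were 35.3% of all genes, and 0 members were below in each, as were 35.4%. All 9 also passed under each of 8 alternatives, among them a correction for length and G+C content and the leaving out of each pool.

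Acaa2 had the highest mean load, 1.01 ± 0.12 (SE, log2), or 2.01 times that of the median gene. Its pools were at 1.04 and 1.39 in HuR-FKO and 0.85 and 0.76 in Ctrl. Acadl (0.92), Hadhb (0.90), Etfa (0.87), Hadha (0.83), Cpt1a (0.74), Etfb (0.70) and Acadm (0.67) followed. Each of these was in the other order from its neighbour in at least 1 of the 4 pools, so the order of neighbours is not resolved. Some members farther apart kept their order in every pool: Acaa2 lay above Cpt1a, Etfb and Acadm, Acadl above Cpt1a and Acadm, and Hadhb and Hadha above Acadm.

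Acadvl, at a mean of 0.45, was below Acadm in every pool, by 0.06 to 0.38. Its pools were at 0.57 and 0.50 in HuR-FKO and 0.37 and 0.37 in Ctrl. Cpt2 was below Acadvl in every pool, by 0.26 to 0.62, and stood at the median gene, with pools at 0.16 and 0.23 in HuR-FKO and -0.25 and -0.01 in Ctrl. Its mean of 0.03 ± 0.12 (SE) did not differ from 0 by the test (limma adjusted p = 0.826, 95% interval -0.26 to 0.32). Of the 4 members without a G at position 4, shown above with their start codons, Cpt2 and Acadvl had the lowest loads and Hadhb and Etfa were at places 3 and 4 from the top. Cpt1a, the other acyltransferase, lay above Cpt2 in each of the 4 pools, with a mean of 1.67 times the median gene against 1.02 times for Cpt2.

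**Figure D4:**
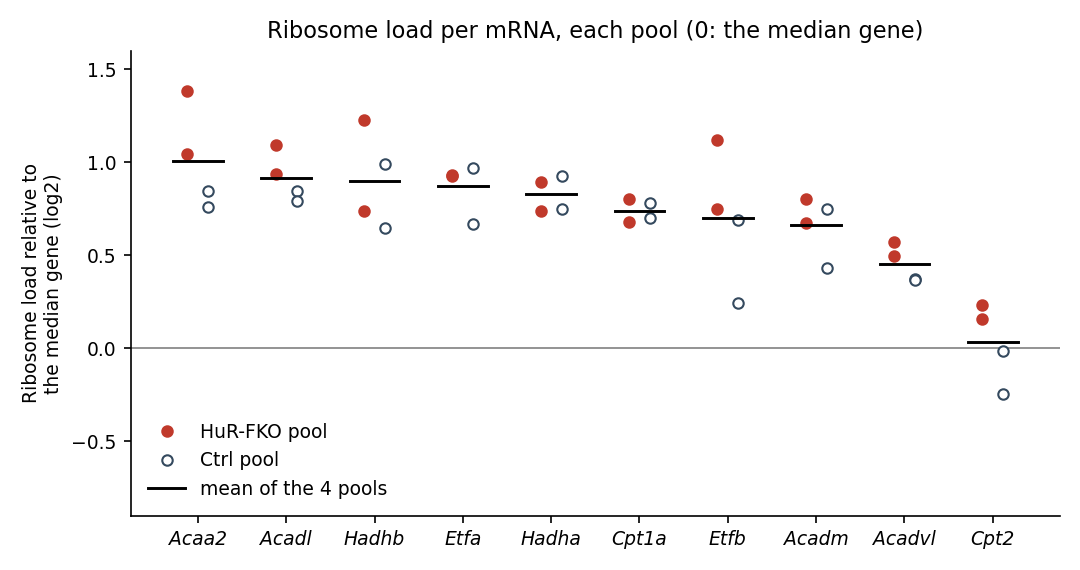
Ribosome load (footprint density along the mRNA) of each enzyme in each pool, in log2 units relative to the median gene (0), ordered by mean. Filled points are HuR-FKO pools, open points are Ctrl pools and lines are means of 4 pools. 9 enzymes lie above 0 in every pool, and Cpt2 lies on both sides of it.

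The rest of the pathway was read from lists of related genes. Of 16 other enzymes of mitochondrial oxidation, 0 passed the mRNA test with limma in either direction. At an unadjusted p under 0.05, 0 were higher and 3 lower, against 1408 and 1214 of all 8562 genes. With voom, 0 passed as higher and 2 as lower, against 878 and 606 of all genes. The median of the 16 was -0.13, and 10 of 16 were lower in HuR-FKO without overlap, against 27.8% of all genes. The most abundant were Hadh, the dehydrogenase for shorter hydroxyacyl chains, at 304 and 295 RPKM in HuR-FKO and 383 and 383 RPKM in Ctrl (log2 fold change -0.36, adjusted p = 0.0561), and the hydratase Echs1, at 305 and 312 RPKM in HuR-FKO and 361 and 361 RPKM in Ctrl (adjusted p = 0.192). Both lay on the lower side in each HuR-FKO library and neither passed, but Hadh passed with median ratio scaling (adjusted p = 0.042) and with voom (adjusted p = 0.0348). In ribosome load, 15 of 16 were above the median gene and 1 below, and 10 to 12 were above when a pool was left out.

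Peroxisomal oxidation, which shortens very long chains outside mitochondria, had 0 higher and 1 lower of 18 genes, against 7.50% and 6.54% of all genes. The thiolase Acaa1a fell, to 116 and 104 RPKM in HuR-FKO against 158 and 163 RPKM in Ctrl (log2 fold change -0.54, limma adjusted p = 0.0152), and its close copy Acaa1b makes the division of reads between the pair uncertain. The call was lost when HuR-FKO replicate 1 (adjusted p = 0.071) or 2 (0.14) was left out. The most abundant genes of the list did not pass. The lipid transfer protein and thiolase Scp2 had 560 and 604 RPKM in HuR-FKO and 527 and 517 RPKM in Ctrl, and Abcd2, a peroxisomal transporter of very long fatty acyl chains, had 246 and 261 RPKM in HuR-FKO and 296 and 242 RPKM in Ctrl.

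Genes on the list of acyl-CoA synthetases and carnitine carriers moved in both directions. Of 13, 4 were higher and 2 lower, against 7.50% and 6.54% of all genes. Acsl1, the main acyl-CoA synthetase of adipocytes, rose to 632 and 640 RPKM in HuR-FKO, against 378 and 369 RPKM in Ctrl (log2 fold change 0.77 ± 0.11 (SE), limma adjusted p = 0.00196), and it passed under all 14 alternatives. Its footprints were 917 and 914 RPKM in HuR-FKO and 488 and 566 RPKM in Ctrl, and just missed the threshold (limma adjusted p = 0.0545). The other rises were smaller or in genes of lower level: the synthetase Acsl4 (0.48), the carnitine importer Slc22a5 (0.47) and the medium-chain synthetase Acsm3 (0.66). The mitochondrial acyl-CoA synthetases Acsf2 and Acsf3 fell by 0.52 and 0.54 on the log2 scale. Crat, which moves acetyl groups on carnitine, had 167 and 173 RPKM in HuR-FKO and 160 and 145 RPKM in Ctrl and did not pass. Except for Acsl1, these calls depended on single libraries. The number of rises was 1 in quantile-normalised values, in the shared fit and when either HuR-FKO library was left out, and 2 with median ratio scaling, with the length and G+C correction and without Ctrl replicate 2. The falls of Acsf2 and Acsf3 did not pass in the shared fit or when either HuR-FKO library was left out.

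Among 13 regulators of the pathway, 2 were higher and 1 was lower, against 7.50% and 6.54% of all genes. Acacb makes the malonyl-CoA that restrains CPT1, and rose to 95.2 and 85.0 RPKM in HuR-FKO against 43.4 and 39.1 RPKM in Ctrl (log2 fold change 1.11, limma adjusted p = 0.000582). Lpin1, a phosphatidate phosphatase that also acts with PGC-1 in the nucleus, rose to 199 and 193 RPKM in HuR-FKO against 101 and 81.2 RPKM in Ctrl (1.11, adjusted p = 0.000769). Esrra, the nuclear receptor ERR-alpha, fell to 35.5 and 25.4 RPKM in HuR-FKO against 49.9 and 53.5 RPKM in Ctrl (-0.76, adjusted p = 0.0133), a call lost without HuR-FKO replicate 2 (adjusted p = 0.121) and in the shared fit (0.112). Stk11, the kinase that activates AMPK and after Lpin1 the most abundant of the list, had 116 and 105 RPKM in HuR-FKO and 110 and 120 RPKM in Ctrl. Ppard, Ppargc1a and Ppargc1b, which belong to the same list, were not analysed here.

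Genes outside the enzymes that are known to respond to PPAR receptors included 6 of 11 that rose and 0 that fell, against 7.50% and 6.54% of all genes, with a median of 0.47. The other 5 did not pass. Among them Cidea, a lipid droplet protein named here after its values were seen, was the only gene of the list lower in HuR-FKO without overlap, at 6.74 and 8.47 RPKM in HuR-FKO and 11.2 and 11.0 RPKM in Ctrl (-0.50, unadjusted p = 0.0122), and 1 gene was called lower with quantile normalization. Pdk4, the kinase that shuts off pyruvate dehydrogenase, rose to 71.4 and 68.9 RPKM in HuR-FKO against 29.3 and 22.2 RPKM in Ctrl (1.42, limma adjusted p = 0.000333). Its footprints rose as well, to 131 and 117 RPKM in HuR-FKO against 55.3 and 44.6 RPKM in Ctrl (1.30, limma adjusted p = 0.033), and it was the only gene of the list to pass in RPF, where 0.327% of all genes were higher. That RPF call was lost when HuR-FKO replicate 1 (adjusted p = 0.131) or 2 (0.114) was left out and without the eBayes trend (0.258).

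The other rises were in the mitochondrial carriers Ucp2 (0.94) and Ucp3 (0.72), the pantetheinase Vnn1 (1.09), the arrestin Txnip (0.48) and the lipase inhibitor Angptl4 (0.47). Txnip and Angptl4 were the most abundant, at 1517 and 1691 RPKM in HuR-FKO against 1148 and 1151 RPKM in Ctrl for Txnip, and 908 and 846 RPKM in HuR-FKO against 628 and 635 RPKM in Ctrl for Angptl4. The number that rose was 2 when either HuR-FKO library was left out, 6 without Ctrl replicate 1, 9 without Ctrl replicate 2, and 3 when all 8 libraries shared a fit. Pdk4 passed in each of these.

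Among ketone body genes, Aacs, which spends acetoacetate on making lipids, had a log2 fold change of -0.44 (limma adjusted p = 0.0471), a call that was kept without Ctrl replicate 1 and lost without any other library (adjusted p of 0.0698 to 0.284), with quantile normalization (0.0912), without the eBayes trend (0.0758) and in the shared fit (0.134). Oxct1, which returns ketone bodies to acetyl-CoA, had 120 and 140 RPKM in HuR-FKO and 142 and 127 RPKM in Ctrl.

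For comparison, 10 of 14 fatty acid synthesis enzymes fell and 0 rose in mRNA, against 6.54% and 7.50% of all genes, with a median of -0.90. In RPF, 6 of 14 fell, against 0.117% of all genes. The RPF count was 2 when HuR-FKO replicate 1 was left out, 1 for HuR-FKO replicate 2 and 0 without the eBayes trend. Fasn fell to 428 and 356 RPKM in HuR-FKO against 1633 and 1705 RPKM in Ctrl (-2.09, limma adjusted p = 2.3e-05), and Acly to 136 and 138 RPKM in HuR-FKO against 507 and 588 RPKM in Ctrl (-1.99). Of 19 citrate cycle enzymes, which burn the acetyl-CoA that fatty acid oxidation makes, 2 fell (Dlst by 0.52 and Sdhb by 0.43 on the log2 scale) and 0 rose, against 6.54% and 7.50% of all genes, with a median of -0.21. Of the 19, 18 were lower in HuR-FKO without overlap, against 27.8% of all genes. Neither fall passed in the shared fit or when a HuR-FKO library was left out, and 3 enzymes were called lower without Ctrl replicate 2, 4 with voom and 5 with the length and G+C correction.

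**Figure D5:**
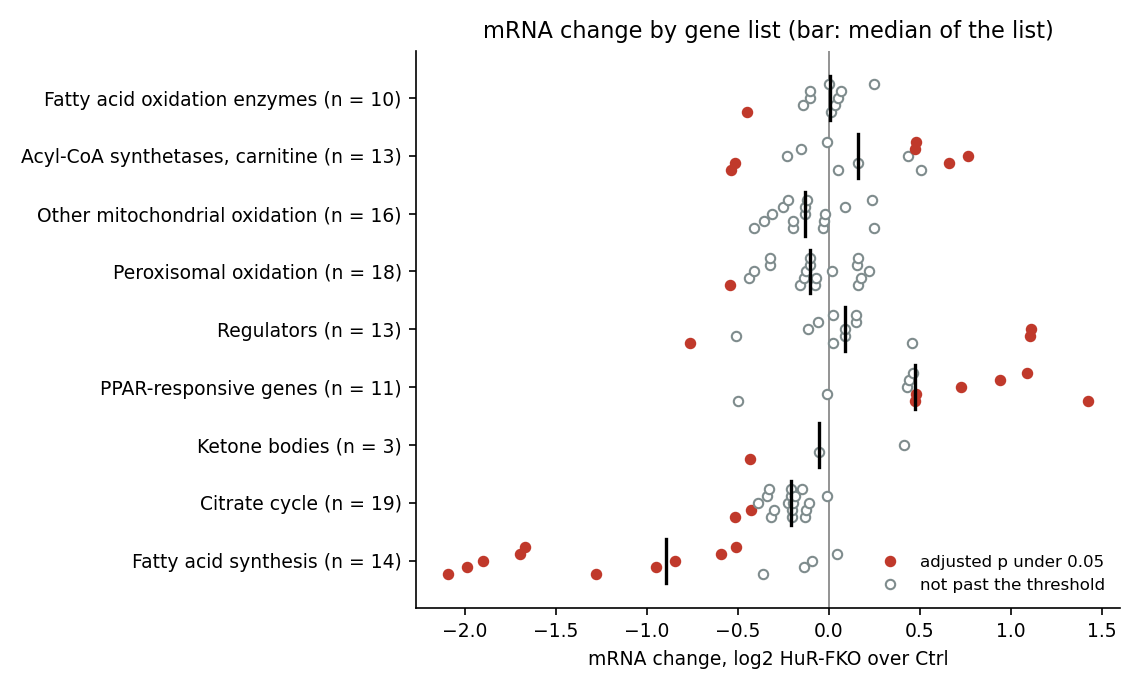
mRNA change in HuR-FKO relative to Ctrl, on the log2 scale, for each listed gene. Filled points passed the limma test at an adjusted p under 0.05, open points did not, and bars are list medians. The fatty acid oxidation enzymes centre at 0.01 with Etfb alone past the threshold, between the PPAR-responsive genes (median 0.47) and the fatty acid synthesis enzymes (median -0.90).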

How the data were processed

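eWAT of HuR-FKO and Ctrl mice was profiled as mRNA and RPF, with 2 libraries per genotype and assay. The authors deposited RPKM values, coding reads scaled by coding length and by the library's total. Tools named in the submitters' notes are cutadapt 1.8.3, TopHat2 2.0.9 and Bowtie 1.0.0; which genome build and counting program were used is not given in the sources used here. Listed are 8562 genes, none below 1 RPKM, so lower genes were left out before deposit. The table also holds group means and ratios made by the authors, which were not used.

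Values were tested as log2(RPKM + 1) in limma 3.58.1 (R 4.3.3; lmFit, eBayes with trend) over all 8562 genes, two-sided, with Benjamini-Hochberg adjustment and a threshold of 0.05. Fold changes are on that scale, and understate those of low genes. A filter at a mean of 1 RPKM removed none. TE was the interaction of genotype and assay over 8 libraries. Ribosome load used the RPF to mRNA ratio of each pool, centred on the median gene, with genotype as a term. The scripts were tested on simulated data.

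Depth was recovered from the values. With GENCODE M21 coding lengths less 1 base, 98.2% of 8298 genes gave whole reads in all 8 libraries within 0.001 read, all members among them. For 413 others the smallest integers that keep the ratios were used. Voom on these reads was an alternative. Precision from reads covers counting error only, since PCR copies are not separate molecules.

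Each pool was split for both assays, per the labels, and the mRNA and RPF libraries of the same number were taken as 1 pool from their titles. Their deviations from the group mean correlated across genes at r = 0.055 in HuR-FKO and 0.045 in Ctrl.

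The members and lists were chosen with earlier results of these data known. Named were all members, genes of the related lists past the threshold and the 2 most abundant of each list, at most 2 of the synthesis and citrate cycle lists, Elavl1 and Insig1. A pair of genes on the related lists is not reported here and was left out of the lists' counts, medians and plot. Alternatives were another pseudocount (0.1), no filter or one at 5 RPKM, median ratio and quantile scaling, eBayes without trend, a correction of each library for transcript length and G+C content (splines, 4 degrees of freedom), a replicate block, 1 fit over all 8 libraries, voom, and leaving out each library or pool.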

Additional observations from a re-analysis of the deposited data

How the results depend on the processing

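Alternatives were run 1 at a time. The length and G+C correction removes both trends together, and voom replaces the values by weighted reads. Among the members in mRNA, the only call, Etfb lower, was lost (0 members lower) with quantile normalization, eBayes without trend, the correction for length and G+C content and 1 fit over all 8 libraries, and leaving out a library gave 0 to 1. No member was called in RPF or TE under any alternative, and 9 members stayed above the median gene in ribosome load under each. Over all genes, mRNA calls were 150 higher and 104 lower in the shared fit and 131 to 925 higher and 95 to 717 lower with a library left out. RPF calls were 6 lower with median ratio scaling, 4 higher and 0 lower without the eBayes trend, 50 higher and 35 lower with the length and G+C correction, 93 higher and 109 lower in the shared fit, 95 higher and 73 lower with voom, and 11 to 63 higher and 3 to 44 lower with a library left out. TE calls were 2 lower with voom and 0 lower without any 1 pool. Fits that leave out a library hold 1 sample in a group, which is assumed to vary like the others. The cause of the shifts under the other settings was not tested.

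Between genotypes the replicate numbers are only names, since nothing ties pool 1 of HuR-FKO to pool 1 of Ctrl. Their deviations correlated at r = 0.155 in mRNA and -0.0048 in RPF. With the replicate block, 1125 genes were higher and 1031 lower in mRNA, and 73 higher and 67 lower in RPF. In TE the block was the pool, and 0 genes were higher and 1 lower, as without it. Among members the block changed no call. Of the other mitochondrial oxidation enzymes, 3 were called lower in mRNA, Hadh among them (limma adjusted p = 0.00789). Counts of lower genes also rose to 1 PPAR-responsive gene, 3 peroxisomal genes, 2 regulators and 7 citrate cycle enzymes. Counts of higher genes rose to 8 PPAR-responsive genes, 5 acyl-CoA synthetases and carnitine carriers, 3 regulators and 1 ketone body gene.

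Changes of sign occurred only in values that passed neither way. In mRNA these were Etfa with median ratio scaling (-0.011), Acadvl with quantile normalization (0.060) and the length and G+C correction (0.054), Abcd2 with quantile normalization (0.014) and Stk11 with the length and G+C correction (0.062). With a library left out, mRNA values ran from -0.031 to 0.095 for Cpt2, -0.016 to 0.014 for Acadvl, -0.0071 to 0.14 for Hadhb, -0.024 to 0.049 for Etfa, -0.22 to 0.066 for Abcd2, -0.13 to 0.011 for Stk11 and -0.17 to 0.059 for Oxct1. RPF values without 1 library ran from -0.040 to 0.10 for Acadl, -0.012 to 0.35 for Hadhb, -0.098 to 0.22 for Etfa and -0.23 to 0.14 for Etfb, which was 0.0070 with the length and G+C correction. In TE, the sign of Cpt1a turned with median ratio scaling (0.0019) and the length and G+C correction (0.0041), that of Acadm with quantile normalization (-0.047), and that of Etfa with quantile normalization (-0.084) and the length and G+C correction (-0.014). Without 1 pool, TE ran from -0.13 to 0.0030 for Cpt1a, -0.14 to 0.34 for Hadhb, -0.058 to 0.23 for Acadm and -0.12 to 0.22 for Etfa. Ribosome load of Cpt2 was -0.048 with the length and G+C correction and -0.026 to 0.091 without 1 pool. The shallowest RPF library holds 531966 reads, which limits the RPF, TE and load values.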
